A study of Mus musculus with 16 samples.

Results

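Xcl1, Flt3l, Xcr1, Flt3, Irf8 and Batf3 are 6 genes of the pathway by which lymphocytes attract and sustain conventional dendritic cells. They were taken by symbol from the 32285 genes listed in each of the 8 count matrices of the series, and all 6 were found. In the mouse build GRCm38 (GENCODE M21), Xcl1 (ENSMUSG00000026573) lies on chromosome 1, from 164931644 to 164935527 on the minus strand. Flt3l (ENSMUSG00000110206) lies on chromosome 7, from 45129788 to 45136432 on the minus strand, where 856 exon bases are shared with the readthrough gene Gm45713, which the matrices do not list. Xcr1 (ENSMUSG00000060509) lies on chromosome 9, from 123852315 to 123862029 on the minus strand, and Flt3 (ENSMUSG00000042817) on chromosome 5, from 147330741 to 147400489 on the minus strand. Irf8 (ENSMUSG00000041515) lies on chromosome 8, from 120736358 to 120756694 on the plus strand, and Batf3 (ENSMUSG00000026630) on chromosome 1, from 191097847 to 191108945 on the plus strand. All 6 are protein-coding genes.

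The study measured single-cell 3′ RNA in CD45-selected cells of subcutaneous B16 melanomas grown in C57BL/6J mice, after 1000000 Bro4.1 B16 cells, a melanoma line, had been implanted. The cells were either control cells or cells without B2m, the light chain that MHC class I needs to reach the surface. Mice received 100 µg of an agonist antibody to CD40, a costimulatory receptor of antigen-presenting cells, or of rat IgG2a isotype antibody by intraperitoneal injection on days 6, 9 and 12, and tumours were taken on day 14. In the labels WT and B2M KO stand as mouse genotypes, but according to the design text it was the implanted melanoma cells that lacked B2m, and groups are named here accordingly. Hashtag antibodies separated 5 mice with control tumours and isotype antibody (2 pools), 2 mice with control tumours and anti-CD40 (1 pool on 2 technical lanes), 5 mice with B2m-null tumours and isotype antibody (2 pools) and 4 mice with B2m-null tumours and anti-CD40 (2 pools). Mice of a pool shared a lane, so that in control tumours under anti-CD40 the pool and the treatment cannot be told apart.

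The lanes held 45985739 to 99264875 unique molecular identifiers (UMIs, counted RNA molecules), and 69014 haematopoietic cells were assigned to a mouse, from a total of 74898 assigned cells with 1047 to 15854 per mouse. The first pool of B2m-null tumours under isotype stood apart, with 40.4% of its barcodes assigned to a mouse, and calls that ended without it are given below with their value without it. Any 2 lanes shared at most 0.484% of their cell barcodes. In the few melanoma-like cells that passed the CD45 selection, B2m was at 1448 ± 306 CPM (UMIs of a gene per 1000000 UMIs of the summed cells; SD, n = 5) in control tumours under isotype, at 1961 ± 475 (n = 2) under anti-CD40 and at 407 ± 167 (n = 2) in B2m-null tumours under isotype. No mouse with B2m-null tumours and anti-CD40 had enough melanoma-like cells for this check. Cells were clustered without the 6 genes and named from marker genes that include none of them, 1 cluster of 5339 cells with T cell and myeloid genes stayed unnamed, and in the 8 lymphoid and dendritic classes checked all markers but 1 of 8 for cDC2-like cells were higher inside the class than in other haematopoietic cells.

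XCL1 is a chemokine secreted by activated natural killer (NK) cells and CD8 T cells, and its receptor XCR1 is carried almost exclusively by type 1 conventional dendritic cells (cDC1), which cross-present tumour antigen. FLT3L is a growth factor made by lymphocytes and stromal cells, and through the receptor tyrosine kinase FLT3 it drives the development and upkeep of dendritic cells. IRF8 and BATF3 are the transcription factors that specify and hold cDC1, and IRF8 also acts in plasmacytoid dendritic cells (pDC), NK cells, B cells and macrophages, where interferon-gamma induces it.

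The promoter sequence of Flt3l is shown because its level changed inside several cell classes and because its upstream 250 bases held a match to a cytokine-response motif. The sequence is from RefSeq on GRCm38.p6, written 5′ to 3′ on the gene's strand and ending at the base before the annotated start. At chr7:45136433-45136682 on the minus strand, the capitals mark 1 match, on the opposite strand, to 2 copies of GAAA separated by 2 bases, the core of the interferon-stimulated response element bound by interferon regulatory factors, at 10 bases before the start.
Flt3l: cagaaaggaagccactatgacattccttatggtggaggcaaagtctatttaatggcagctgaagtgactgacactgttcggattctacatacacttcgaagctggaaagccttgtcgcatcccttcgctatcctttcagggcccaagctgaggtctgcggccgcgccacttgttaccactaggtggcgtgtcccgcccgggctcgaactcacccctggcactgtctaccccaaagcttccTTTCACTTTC
With both strands searched, the GAAA pair was found in 2.98% of 32851 RefSeq promoters of the same length. The upstream windows of Xcr1 and Flt3 held no match to this motif, to GGAA followed after 2 bases by GAAA (ETS-IRF, 2.30% of promoters), to TGANTCA (AP-1, 6.75%) or to AGGTGTGA (T-box, 1.12%). A match describes letters and does not show binding.

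Counts were summed per mouse over 10 cell sets and tested with edgeR's quasi-likelihood test, with Benjamini-Hochberg adjustment over all genes of a set and a call at an adjusted p under 0.05. Anti-CD40 against isotype in control tumours gave 9 calls in 37 tests of the 6 genes, where 17.1% of all gene tests over the same sets were called. In B2m-null tumours anti-CD40 gave 9 calls in 34 tests, against 20.2% of all gene tests. B2m-null against control tumours gave 5 calls in 42 tests under isotype, against 3.2% of all gene tests, and 2 calls in 31 tests under anti-CD40, against 9.14%. The difference of the CD40 effects between the tumour genotypes gave 1 call in 28 tests, against 12.5%. In an alternative, cells of 7 of the 10 sets were gated on marker UMIs in place of clusters, and all haematopoietic cells, monocytes with macrophages and regulatory T-like cells were kept as they were. There the CD40 contrasts gave 14 calls in 35 tests in control tumours, where 17% of all gene tests were called, and 17 in 38 in B2m-null tumours, where 21.9% were. The calls are described gene by gene below. Where alternatives ended a call their number is given, out of up to 24 fits that left out a mouse, pool or lane and up to 15 other settings. Some of these could not change a result, as when the mouse left out had too few cells to be in the fit. All 6 genes passed the filter on low counts in all haematopoietic cells, in monocytes with macrophages and in the cDC1-like, cDC2-like and mature dendritic cell-like sets, 4 passed in CD8 T-like cells, 3 each in NK-like, CD4 T-like and regulatory T-like cells, and 2 in pDC-like cells.

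**Figure D1:**
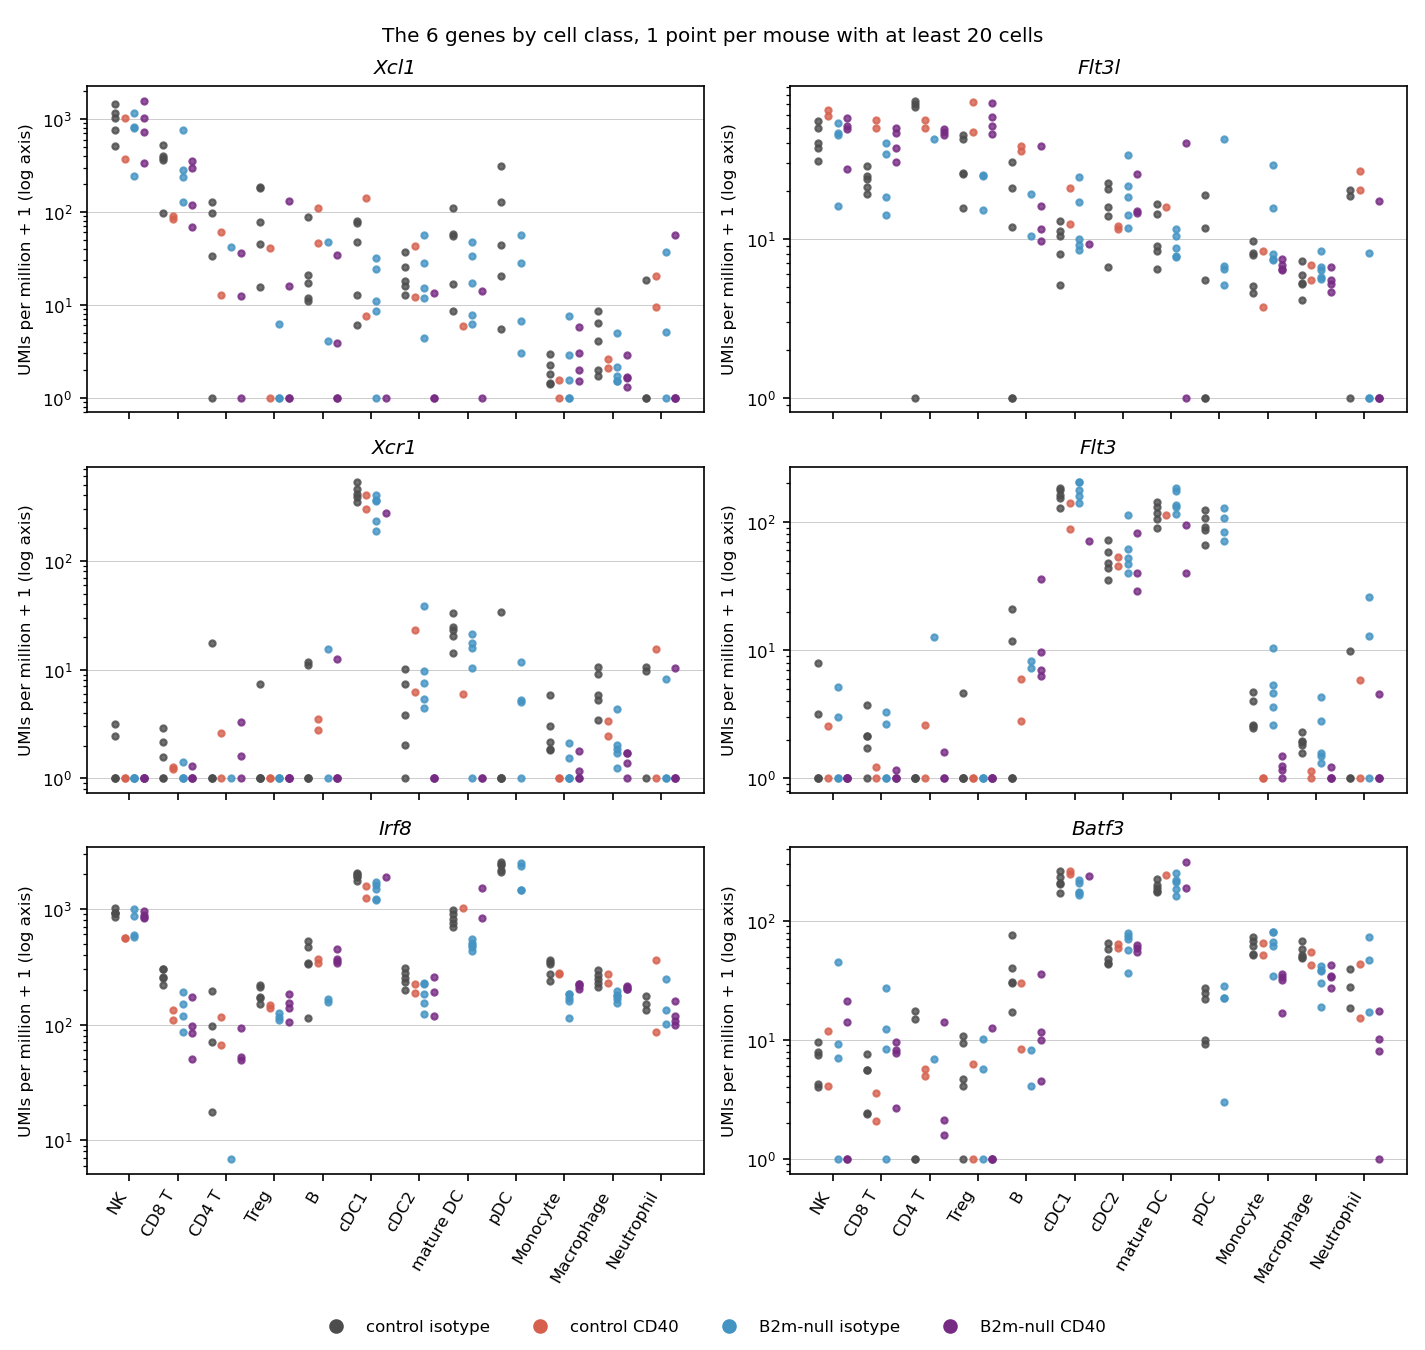
Level of each of the 6 genes by cell class, with one point per mouse with at least 20 cells of that class, coloured by group, on a log axis of CPM + 1; points within a group are sorted by value. Xcl1 is high in NK-like and CD8 T-like cells, Flt3l in T-like and NK-like cells, Xcr1 in cDC1-like cells and Flt3 in the dendritic classes. Batf3 is high in cDC1-like and mature dendritic cell-like cells, and Irf8 in pDC-like, cDC1-like, NK-like and mature dendritic cell-like cells.

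Xcl1 RNA was concentrated in NK-like cells, at 866 ± 395 CPM (SD, n = 15 mice), and in CD8 T-like cells, at 277 ± 194 CPM (n = 15). NK-like cells were higher than CD8 T-like cells in 15 of 15 mice. Next in order came pDC-like cells at 65.9 ± 99.4 CPM (n = 9), regulatory T-like cells at 49.4 ± 67.7 (n = 14) and CD4 T-like cells at 41.4 ± 41.9 (n = 10), whose spreads overlapped so that these neighbours have no order, while macrophage-like cells were at 1.91 CPM. Between CD4 T-like and macrophage-like cells lay cDC1-like cells at 33.4 CPM, B-like cells at 29.6, mature dendritic cell-like cells at 28.4, cDC2-like cells at 18.6 and neutrophil-like cells at 11.7. At least 1 Xcl1 UMI was found in 36.7% of NK-like cells, at a median depth of 1491 UMIs per cell, against 0.512% of macrophage-like cells at 4848 UMIs per cell. The part of free RNA in these values was not tested. The transcripts were spread unevenly over the cells of a class. The 5% of NK-like cells with most Xcl1 held 52.8%, 60.8%, 65.2% and 63.8% of the class's Xcl1 UMIs in control isotype, control anti-CD40, B2m-null isotype and B2m-null anti-CD40 tumours. For CD8 T-like cells these shares were 76.5% and 72.7% in control and B2m-null isotype tumours. Under anti-CD40 only 365 of 8284 and 258 of 4338 CD8 T-like cells held any Xcl1 UMI, so that the top 5%, 415 and 217 cells, held nearly all of them by construction and no share is read there.

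In NK-like cells Xcl1 was at 505, 767, 1034, 1169 and 1453 CPM in the 5 control isotype mice and at 373 and 1030 CPM under anti-CD40. In B2m-null tumours it was at 243, 794, 811 and 1167 CPM under isotype, 1 mouse having fewer than 20 such cells, and at 334, 717, 1022 and 1566 CPM under anti-CD40. The range within each group was wide, the groups overlapped, and no Xcl1 contrast was called in NK-like cells. In CD8 T-like cells Xcl1 was at 95.5, 364, 377, 395 and 528 CPM in control isotype mice and at 82.9 and 89.7 CPM under anti-CD40. Both anti-CD40 mice thus lay below all 5 isotype mice, but the change of -1.99 ± 0.82 (log2, SE) missed the threshold with edgeR's quasi-likelihood test, at a Benjamini-Hochberg adjusted p of 0.0865. DESeq2 gave -2.001 with an adjusted p of 0.0372 and limma-voom an adjusted p of 0.0209. The call was also made without mouse 1 of the second isotype pool (0.0484). With no filter on low counts the adjusted p was 3.44e-22, far below the other values given here. Pools as the unit leave 1 control anti-CD40 pool and are not read here. The call thus depends on the test and on these choices. With B2m-null tumours these cells held 125, 235, 281 and 753 CPM under isotype and 68.3, 118, 297 and 348 CPM under anti-CD40, and these groups overlapped. In both genotypes the clusters making up CD8 T-like cells differed between isotype and anti-CD40, as given below for Flt3l. Their part was not tested.

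Over all haematopoietic cells, where the number of lymphocytes and the RNA per cell act together, Xcl1 was at 18.0, 42.2, 62.2, 77.1 and 154 CPM in control isotype mice, 37.1 and 43.9 under anti-CD40, 9.51, 11.8, 12.0, 18.6 and 70.6 in B2m-null isotype mice, and 23.4, 40.3, 42.6 and 89.1 under anti-CD40. Of the 5 B2m-null isotype mice, 2 lay within the control isotype range and 3 below it. Of 36 tests of Xcl1 over all sets and contrasts, edgeR's quasi-likelihood test called 0, and 6 had an unadjusted p under 0.05. NK-like cells supplied 35.7% ± 10.9 (SD, n = 5) of a mouse's haematopoietic Xcl1 UMIs in control isotype tumours, 33.4% ± 0.112 (n = 2) under anti-CD40, 28.7% ± 19.3 (n = 5) in B2m-null isotype tumours and 35.3% ± 6.49 (n = 4) under anti-CD40. CD8 T-like cells supplied 46.0% ± 8.39, 56.7% ± 0.487, 38.7% ± 10.9 and 54.1% ± 7.95 in the same order. The 2 classes together thus held most Xcl1 transcripts in each group. The largest shift, 15.4 points more from CD8 T-like cells under anti-CD40 in B2m-null tumours, had p = 0.0476 by a two-sided exact permutation test over mice and an adjusted p of 0.286 over the 12 tests of source shares, none of which passed. Those with the 2 control anti-CD40 mice could not pass, as the smallest p of this test was 0.0952 or 0.133. The T-like share of Flt3l under anti-CD40 in B2m-null tumours, given below, could not pass after adjustment either, at a smallest p of 0.0286. The unnamed cluster, outside these shares, held 9.80% to 17.5% of the Xcl1 UMIs of its group.

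**Figure D2:**
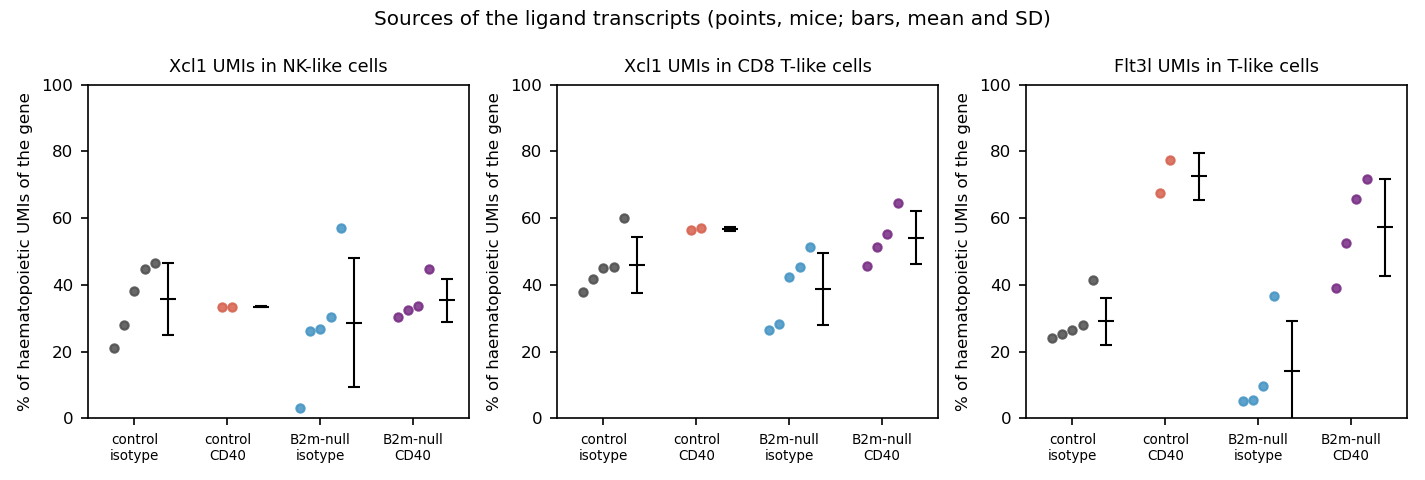
Share of a mouse's haematopoietic Xcl1 UMIs in NK-like and in CD8 T-like cells, and of its Flt3l UMIs in T-like cells, in percent, by group; one point per mouse with at least 30 UMIs of the gene, bars are the group mean and SD. Xcl1 shares overlap between groups, and the Flt3l share from T-like cells lies higher under anti-CD40 than under isotype in every mouse of either tumour genotype.

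Flt3l RNA was highest in T-like and NK-like cells. CD4 T-like cells stood at 49.2 ± 20.6 CPM (SD, n = 10 mice), NK-like cells at 44.6 ± 13.2 (n = 15), regulatory T-like cells at 39.5 ± 19.1 (n = 14) and CD8 T-like cells at 31.9 ± 13.1 (n = 15). Over all groups the spreads of these 4 neighbours overlapped, and CD4 T-like cells exceeded NK-like cells in 4 of the 10 mice that had both. The groups differed in level, however, and among control isotype mice all 5 NK-like values, from 29.9 CPM, lay above all 5 CD8 T-like values, up to 27.6 CPM. B-like cells were at 17.7 ± 13.1 CPM and cDC2-like cells at 16.1 ± 6.71, overlapping in spread, with B-like cells higher in 8 of 12 mice. The cDC1-like cells were at 11.2 CPM, and macrophage-like cells were lowest at 4.92. Because macrophages were the most numerous cells, they still held 28.6% of haematopoietic Flt3l UMIs in control isotype tumours and 40.7% in B2m-null isotype tumours, and 13.8% and 18.4% under anti-CD40, as means over mice.

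Anti-CD40 raised Flt3l over all haematopoietic cells in tumours of both genotypes. In control tumours it was at 6.41, 7.67, 9.39, 9.95 and 11.01 CPM under isotype and at 19.5 and 23.2 CPM under anti-CD40, without overlap. The change was 1.35 ± 0.251 (log2, SE), or 2.55-fold, with an adjusted p of 0.00143 by edgeR's quasi-likelihood test with Benjamini-Hochberg adjustment, where 27.5% of all genes in the set were called. In B2m-null tumours it was at 6.04, 7.38, 8.13, 10.0 and 13.8 CPM under isotype and at 9.32, 10.4, 15.0 and 17.9 CPM under anti-CD40. These groups overlapped, and the change was 0.80 ± 0.224, with an adjusted p of 0.0115 by edgeR's quasi-likelihood test with Benjamini-Hochberg adjustment and 37.1% of all genes called. The call ended in 3 of 24 left-out fits. It was 0.35 without the second anti-CD40 pool of B2m-null tumours (edgeR adjusted p of 0.337). It ended also without mouse 1 of that pool (0.59, 0.0573) and without the second isotype pool of B2m-null tumours (0.70, 0.0525). The lymphocyte share moved the same way: CD8 T-like cells made up 12.4% of haematopoietic cells in control isotype tumours and 40.005% under anti-CD40, and 5.71% and 24.5% in B2m-null tumours. T-like cells supplied 29.1% ± 7.09 (SD, n = 5) of Flt3l UMIs in control isotype tumours and 72.5% ± 7.0045 (n = 2) under anti-CD40, a difference of 43.4 points with p = 0.0952 by a two-sided exact permutation test, the smallest that 2 against 5 mice can give. In B2m-null tumours the shares were 14.2% ± 15.0 (n = 4) and 57.2% ± 14.6 (n = 4), a difference of 43.0 points with p = 0.0286, the smallest possible in that exact test, and an adjusted p of 0.286 for either. Neither pair of groups overlapped, and neither test could pass once adjusted over the 12 tests of source shares. The unnamed cluster, which held T cell and myeloid genes and lies outside these shares, held 10.2% to 13.9% of the Flt3l UMIs of its group.

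Flt3l also rose inside CD8 T-like cells in control tumours. The 5 isotype mice held 18.0, 20.1, 22.6, 23.9 and 27.6 CPM and the 2 anti-CD40 mice 48.5 and 54.9 CPM, a change of 1.28 ± 0.212 (log2, SE) or 2.43-fold, with an adjusted p of 0.000154 by edgeR's quasi-likelihood test with Benjamini-Hochberg adjustment, where 31.3% of all genes were called. The anti-CD40 mice stood clear above every isotype mouse. The make-up of the set differed too. Its clusters held 155, 1305 and 997 cells in control isotype and 4122, 3081 and 1081 in control anti-CD40 tumours. In B2m-null tumours they held 144, 597 and 279 cells under isotype and 2860, 500 and 978 under anti-CD40. The part of this in the values was not tested. In B2m-null tumours the same cells held 13.2, 17.2, 33.1 and 39.1 CPM under isotype and 29.6, 36.5, 45.3 and 48.5 CPM under anti-CD40, and the change of 0.55 was not called (edgeR adjusted p of 0.137). It was 0.07 (0.999) without the second anti-CD40 pool, 0.37 (0.397) without the first isotype pool and 1.66 (0.0632) without the second. It was called without the first anti-CD40 pool (0.76, 0.0109) or its mouse 2 (0.69, 0.03). The difference between the genotypes' effects was not called either, which does not show that they were alike.

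In regulatory T-like cells Flt3l was at 14.6, 24.6, 25.1, 41.2 and 43.9 CPM in control isotype mice and 45.9 and 71.7 CPM under anti-CD40. In B2m-null tumours it was at 14.3, 23.7 and 24.3 CPM under isotype and 44.8, 50.6, 57.6 and 70.8 CPM under anti-CD40. The anti-CD40 mice lay above the isotype mice of the same genotype in both cases. The change was 2.18-fold with an edgeR quasi-likelihood Benjamini-Hochberg adjusted p of 0.0276 in control tumours (16.8% of all genes called), and 2.504-fold with 0.0197 in B2m-null tumours (12.6% called). The first call ended in 7 of 24 left-out fits, among them the fit without mouse 2 of the anti-CD40 pool (0.65 on the log2 scale, adjusted p of 0.683), and in 6 of 13 other settings, with DESeq2 at an adjusted p of 0.143 and Leiden resolution 2 at 0.142. The second ended in 5 of 24 left-out fits, among them the fit without the second isotype pool of B2m-null tumours (1.28, adjusted p of 0.512), and in 2 of 12 other settings (adjusted p of up to 0.518).

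In NK-like cells Flt3l was at 29.9, 36.3, 39.1, 48.9 and 54.3 CPM in control isotype mice and 58.4 and 64.0 under anti-CD40, a separation that was not called, where 5.99% of all genes were. In B2m-null tumours the values were 15.0, 44.2, 45.3 and 52.3 CPM under isotype and 26.4, 48.1, 50.2 and 56.7 CPM under anti-CD40. The fitted change of 1.06 ± 0.359 (log2, SE; edgeR quasi-likelihood, Benjamini-Hochberg adjusted p of 0.0483, 9.87% of all genes called) lay just under the threshold, and the call ended in 18 of 24 left-out fits and 7 of 13 other settings. The value moved most without the isotype mouse at 15.0 CPM, mouse 1 of pool 2, to 0.15 (adjusted p of 0.891), and without that pool, to 0.22 (0.939). The other settings that ended the call gave 0.88 to 1.29 (adjusted p of 0.0514 to 0.286). The summed level of 5 T cell markers in NK-like cells was 173, 624, 159 and 719 CPM in control isotype, control anti-CD40, B2m-null isotype and B2m-null anti-CD40 tumours, and its part in the NK-like values was not tested. In CD4 T-like cells Flt3l was at 0, 66.1, 69.6 and 72.8 CPM in control isotype mice, 49.1 and 55.3 under anti-CD40, 41.2 in the only B2m-null isotype mouse with at least 20 such cells, and 44.3, 46.0 and 48.0 in B2m-null anti-CD40 mice, with no call.

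**Figure D3:**
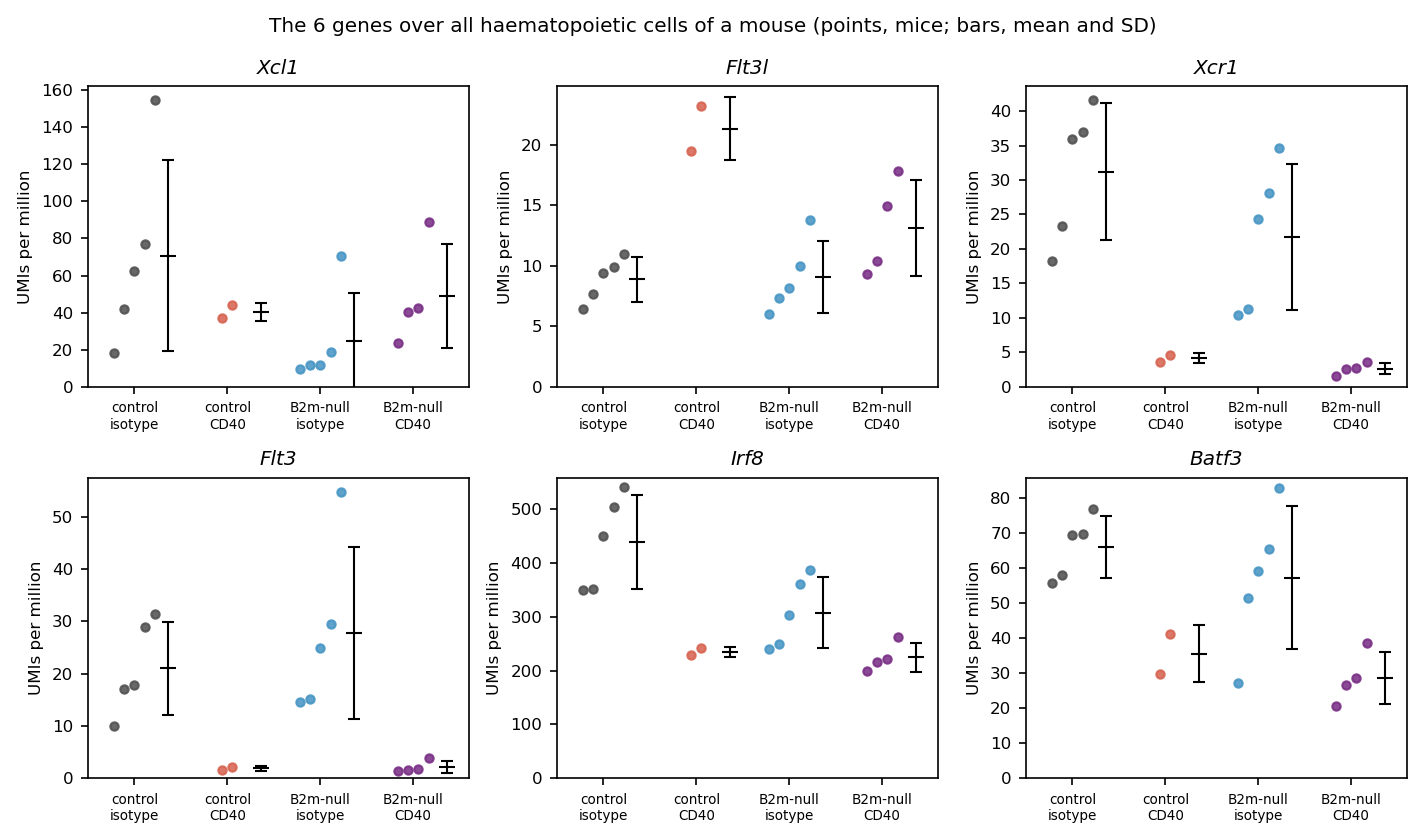
Level of the 6 genes over all haematopoietic cells of a mouse, in CPM, by group; one point per mouse, sorted by value within a group, with bars for the mean and SD. Xcr1 and Flt3 lie far lower under anti-CD40 than under isotype in both tumour genotypes, without overlap, and Flt3l lies higher.

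Xcr1 RNA was found in cDC1-like cells at 358 ± 94.0 CPM (SD, n = 13 mice) and was low in every other class. Mature dendritic cell-like cells, next in order, held 13.6 ± 10.3 CPM and were below cDC1-like cells in 11 of 11 mice, and NK-like cells held 0.240 CPM. Summed over all haematopoietic cells the receptor fell under anti-CD40 in both tumour genotypes. Control isotype mice held 18.3, 23.4, 35.96, 36.9 and 41.6 CPM and anti-CD40 mice 3.63 and 4.66 CPM. B2m-null isotype mice held 10.5, 11.3, 24.3, 28.1 and 34.6 CPM and anti-CD40 mice 1.60, 2.58, 2.77 and 3.63 CPM. Every anti-CD40 mouse was thus below every isotype mouse. The fall was 7.19-fold (log2 -2.85 ± 0.47, adjusted p of 0.000752) in control tumours and 7.03-fold (log2 -2.81 ± 0.382, adjusted p of 0.00015) in B2m-null tumours, by edgeR's quasi-likelihood test with Benjamini-Hochberg adjustment.

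Fewer cDC1-like cells were found in the same tumours, and no change in Xcr1 was called within the cDC1-like clusters. These cells made up 3.86% of haematopoietic cells in control isotype tumours and 0.371% under anti-CD40, and 4.39% and 0.468% in B2m-null tumours, as means over mice. Within cDC1-like cells Xcr1 was at 349, 388, 411, 457 and 536 CPM in control isotype mice and at 300 and 403 CPM under anti-CD40, a change of -0.23 (log2; edgeR adjusted p of 0.836), which ranged from -0.65 to -0.05 when a mouse, pool or lane was left out. B2m-null isotype mice held 186, 230, 355, 364 and 406 CPM and the single anti-CD40 mouse with at least 20 such cells 275 CPM. B2m-null against control isotype mice gave -0.47 ± 0.207, not called (edgeR adjusted p of 0.354), but called without the second B2m-null isotype pool (-0.80, 0.0437) and with no filter on low counts (-0.49, 0.00579). Left-out fits of this comparison ranged from -0.80 to -0.16, with an edgeR adjusted p of up to 0.864. With the minimum lowered to 10 cells, 3 B2m-null anti-CD40 mice could be fitted, and Xcr1 changed by -0.01 (edgeR adjusted p of 0.992). In cells gated on at least 2 UMI-positive cDC1 markers in place of clusters, Xcr1 changed by -2.78 in control tumours (edgeR adjusted p of 0.0613) and by -2.59 in B2m-null tumours (0.0196). The level thus depends on how the class was drawn. The gate did not exclude monocytes or macrophages. In control isotype tumours these held 20166 and 5697 UMIs of the gate markers Naaa and Cadm1, against 10555 and 740 in cDC1-like cells. Their part in the gated values was not tested. At least 1 Xcr1 UMI was found in 71.8% of 751 cDC1-like cells in control isotype tumours, 66.2% of 71 under anti-CD40, 65.8% of 465 in B2m-null isotype tumours and 62.3% of 69 under anti-CD40. In mature dendritic cell-like cells Xcr1 was at 13.2 to 32.3 CPM in control isotype mice, 4.92 in the 1 anti-CD40 mouse, 0 to 20.3 in B2m-null isotype mice and 0 in both anti-CD40 mice, with no call at these levels.

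A low Xcr1 level in monocytes and macrophages differed between tumour genotypes. It was at 1.83, 3.59, 4.44, 6.75 and 8.42 CPM in control isotype mice and at 0.273, 0.795, 0.820, 0.843 and 2.92 CPM in B2m-null isotype mice, groups that overlapped in 1 mouse. The change was -2.88 ± 0.503 (log2, SE), with an adjusted p of 0.00512 by edgeR's quasi-likelihood test with Benjamini-Hochberg adjustment, and 8.96% of all genes were called. Without the first control isotype pool it was -2.53 (adjusted p of 0.0913) and without the first B2m-null isotype pool -3.29 (adjusted p of 0.058). Under anti-CD40 the levels were 1.25 and 2.24 CPM in control and 0, 0.453, 0.462 and 0.547 CPM in B2m-null tumours, a change of -2.12 ± 0.652 (edgeR adjusted p of 0.0473, 10.5% of all genes called), just under the threshold. That call ended in 17 of 24 left-out fits, with -1.48 (adjusted p of 0.453) without mouse 2 of the control anti-CD40 pool and -2.10 (0.0524) without the first B2m-null isotype pool, and in 8 of 14 other settings (adjusted p of up to 0.111). The make-up of the set differed as well. In control and B2m-null anti-CD40 tumours 1 macrophage-like cluster held 4022 and 768 cells, and 1 monocyte-like cluster 417 and 1698. Its part was not tested. Monocytes and macrophages held 169, 77.9, 73.1 and 40 Xcr1 UMIs per 100 UMIs of Clec9a, a cDC1 marker, in control isotype, control anti-CD40, B2m-null isotype and B2m-null anti-CD40 tumours, where cDC1-like cells held 165, 194, 192 and 172. The summed level of the 9 cDC1 markers in monocytes and macrophages was 636, 562, 519 and 481 CPM. Naaa alone held 372, 315, 306 and 295 CPM of it as means over mice, and Clec9a 3.27, 2.05, 1.14 and 0.947. In control isotype tumours 2 macrophage-like clusters held 99 and 119 of the set's 298 Xcr1 UMIs. There 6 of 67 and 8 of 82 Xcr1-positive cells also held Clec9a. The part of cDC1 RNA in these values was not tested.

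Flt3 RNA was found in the dendritic classes, at 152 ± 40.4 CPM (SD, n = 13 mice) in cDC1-like cells, 120 ± 36.8 in mature dendritic cell-like cells, 95.7 ± 22.4 (n = 9) in pDC-like cells and 53.8 ± 21.3 (n = 15) in cDC2-like cells. Neighbours in this order overlapped in spread, although pDC-like cells exceeded cDC2-like cells in 9 of 9 mice, and B-like cells followed at 8.15 CPM. Over all haematopoietic cells Flt3 showed the largest fold change of the 6 genes. Control isotype mice held 9.98, 17.0, 17.9, 28.9 and 31.4 CPM and anti-CD40 mice 1.56 and 2.21 CPM. B2m-null isotype mice held 14.6, 15.1, 25.0, 29.5 and 54.8 CPM and anti-CD40 mice 1.37, 1.60, 1.75 and 3.87 CPM. Again no anti-CD40 mouse reached the lowest isotype mouse. The fall was 10.8-fold (log2 -3.43 ± 0.599, adjusted p of 0.00114) in control tumours and 11.7-fold (log2 -3.55 ± 0.468, adjusted p of 0.000133) in B2m-null tumours, by edgeR's quasi-likelihood test with Benjamini-Hochberg adjustment.

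All 4 dendritic classes made up smaller shares of haematopoietic cells under anti-CD40. Besides cDC1-like cells, cDC2-like cells stood at 4.42% and 0.634% in control and at 5.70% and 0.948% in B2m-null tumours under isotype and anti-CD40. Mature dendritic cell-like cells stood at 4.36% and 0.228% in control and at 5.77% and 0.675% in B2m-null tumours, and pDC-like cells at 1.54% and 0.0672% and at 2.27% and 0.202%. Within cDC1-like cells Flt3 was at 127, 154, 160, 177 and 182 CPM in control isotype mice and at 87.3 and 139 CPM under anti-CD40, a change of -0.50 (log2; edgeR adjusted p of 0.397). It was -0.18 (0.906) without mouse 2 and -0.85 (0.374) without mouse 1 of the anti-CD40 pool, and -1.20 (0.323) without the first lane of that pool. In B2m-null tumours it was at 139, 157, 176, 203 and 206 CPM under isotype and at 69.9 CPM in the 1 anti-CD40 mouse, which lay below them all. With a minimum of 10 cells, and 3 such mice, the change was -1.09 with an adjusted p of 0.00492 by edgeR's quasi-likelihood test with Benjamini-Hochberg adjustment, where 6.93% of all genes were called. With marker gates in place of clusters the changes were -3.28 in control (edgeR adjusted p of 0.0446) and -3.62 in B2m-null tumours (0.00463). As given for Xcr1, this gate did not exclude monocytes or macrophages, whose part was not tested. At least 1 Flt3 UMI was found in 61.3%, 43.7%, 67.7% and 47.8% of cDC1-like cells in control isotype, control anti-CD40, B2m-null isotype and B2m-null anti-CD40 tumours, at median depths of 5824, 5446, 6834 and 6832 UMIs per cell. In cDC2-like, mature dendritic cell-like and pDC-like cells no Flt3 contrast was called, the 1 with an unadjusted p under 0.05 being anti-CD40 in mature dendritic cell-like cells of B2m-null tumours. There the 5 isotype mice held 114 to 182 CPM and the 2 anti-CD40 mice 38.8 and 94.2 CPM, without overlap, a change of -0.998 ± 0.374 (edgeR adjusted p of 0.237). The change ranged from -2.02 to -0.60 when a mouse, pool or lane was left out. With marker gates it was -1.74 and called (0.00134).

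Flt3 in monocytes and macrophages was near 0 and lower still under anti-CD40. Control mice held 0.704 to 1.98 CPM under isotype and 0 and 0.1299 CPM under anti-CD40, a change of -3.37 ± 0.794 (log2, SE; edgeR quasi-likelihood, Benjamini-Hochberg adjusted p of 0.00676, 20.9% of all genes called). B2m-null mice held 0.647 to 4.08 CPM under isotype and 0, 0.0453, 0.0771 and 0.305 CPM under anti-CD40, a change of -3.79 ± 0.72 (adjusted p of 0.00078, 35.9% called). The groups did not overlap, at levels of a few UMIs per mouse, and dendritic cell shares fell in the same tumours. The make-up of the set differed too. Monocyte-like cells made up 22.4% and 6.68% of haematopoietic cells in control isotype and anti-CD40 tumours. The monocyte-like cluster with most Flt3 held 2834 and 763 cells, and 1 macrophage-like cluster held 374 and 4022. The part of either in these values was not tested. With the cells of a group pooled, Flt3 was lower under anti-CD40 in 8 of the 8 clusters of the set in control tumours, and in 7, with 1 at 0 in both groups, in B2m-null tumours. The call in control tumours ended in 3 of 24 left-out fits, without mouse 1 (-2.95, adjusted p of 0.0515) or mouse 2 (-6.87, 0.0584) of the anti-CD40 pool or the first isotype pool (-3.08, 0.0519), and in 1 of 13 other settings.

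**Figure D4:**
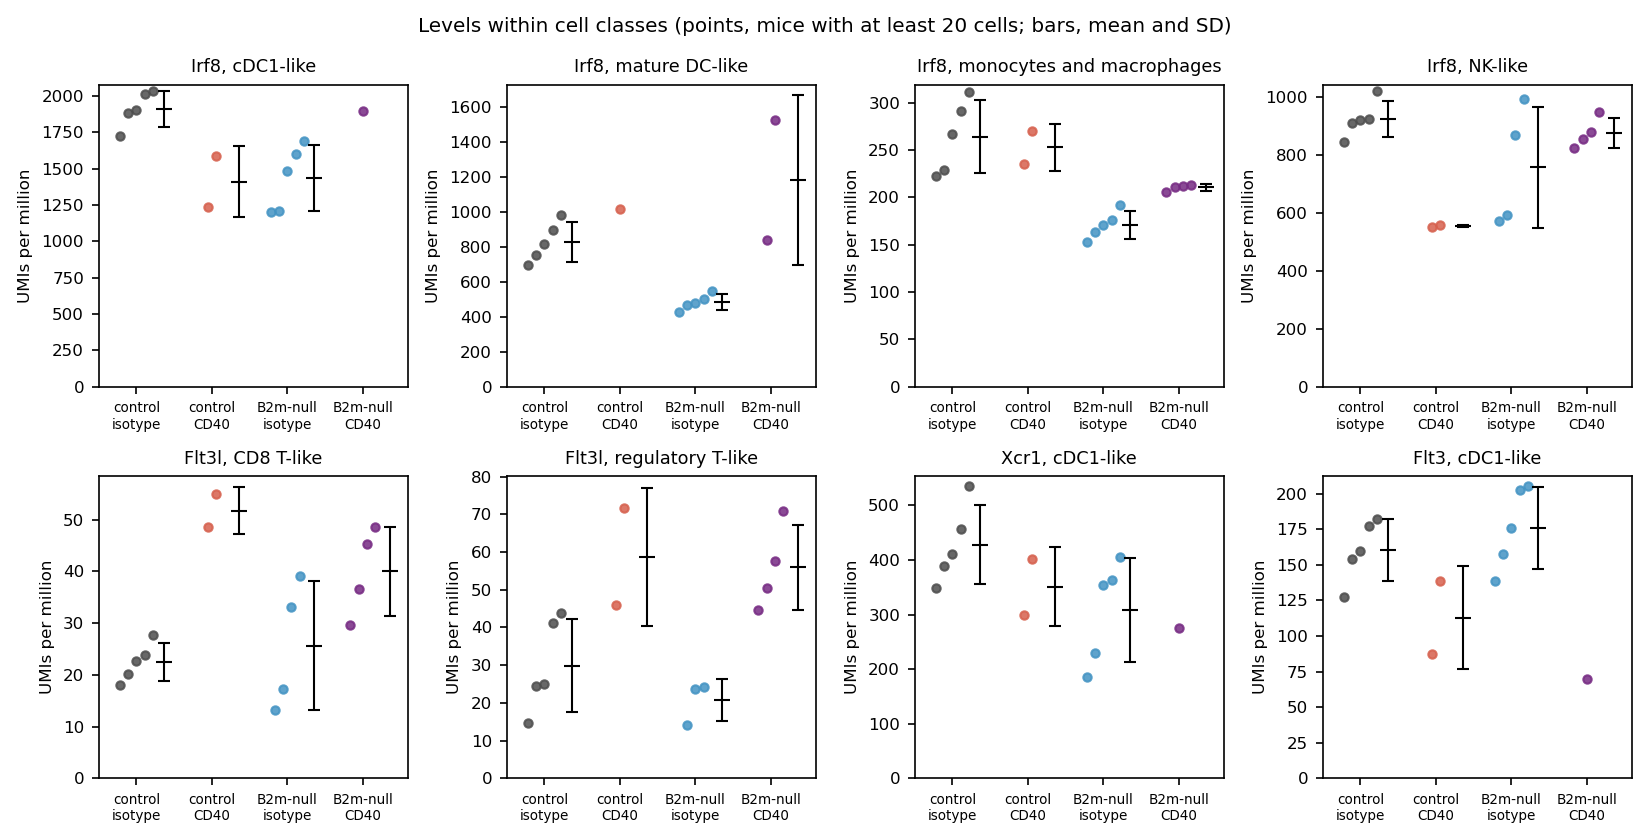
Levels of the members within named cell classes, in CPM, by group; one point per mouse with at least 20 cells, sorted by value within a group, with bars for the mean and SD. Irf8 in macrophages with monocytes, cDC1-like and mature dendritic cell-like cells is lower in B2m-null than in control tumours under isotype, and Flt3l in CD8 T-like cells is higher under anti-CD40 in control tumours.

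Irf8 RNA was highest in pDC-like cells, at 2152 ± 425 CPM (SD, n = 9 mice), and in cDC1-like cells, at 1651 ± 298 (n = 13), followed by NK-like cells at 818 ± 164 (n = 15) and mature dendritic cell-like cells at 766 ± 305 (n = 13). The spreads of the first 2 overlapped, although pDC-like cells were higher in 8 of the 9 mice that had both. Those of the last 2 overlapped too, with NK-like cells higher in 8 of 12 mice. The cDC1-like cells exceeded NK-like cells in 12 of 12 mice. B-like cells followed at 331 ± 122 CPM, and macrophage-like cells stood at 215 CPM and CD8 T-like cells at 167.

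Under isotype, Irf8 was lower in B2m-null than in control tumours in 3 single sets, and fitted changes in lymphoid sets had the same sign without a call. In monocytes and macrophages it was at 223, 229, 267, 292 and 311 CPM in control mice and at 153, 163, 171, 176 and 192 CPM in B2m-null mice, without overlap. The change was -0.68 ± 0.103 (log2, SE), or 1.60-fold lower, with an adjusted p of 0.00172 by edgeR's quasi-likelihood test with Benjamini-Hochberg adjustment. In cDC1-like cells it was at 1722, 1886, 1905, 2012 and 2032 CPM in control mice and at 1200, 1207, 1486, 1601 and 1690 CPM in B2m-null mice, also without overlap (1.35-fold lower, log2 -0.43 ± 0.105, edgeR adjusted p of 0.0328, 1.17% of all genes called). In mature dendritic cell-like cells the values were 699, 754, 815, 896 and 983 CPM against 427, 470, 482, 503 and 549 CPM (1.70-fold lower, log2 -0.76 ± 0.133, edgeR adjusted p of 0.00475, 0.352% of all genes called). All 5 B2m-null mice thus lay below all 5 control mice in each of these 3 sets. In CD8 T-like cells the change of -1.17 ± 0.292 was the largest fitted but was not called (edgeR adjusted p of 0.091), with 217, 250, 254, 300 and 302 CPM in control and 84.9, 119, 150 and 189 CPM in B2m-null mice, without overlap. In regulatory T-like cells the change of -0.63 was not called either (edgeR adjusted p of 0.356), with groups of 5 and 3 mice that did not overlap. In cDC2-like cells the change of -0.51 was not called (edgeR adjusted p of 0.0536), with 123, 154, 184, 221 and 228 CPM in B2m-null and 198, 234, 254, 279 and 305 CPM in control mice. Over all haematopoietic cells control mice held 349, 352, 449, 503 and 541 CPM and B2m-null mice 239, 249, 304, 360 and 386 CPM, an overlapping change of -0.54 ± 0.136 (edgeR adjusted p of 0.0318, 6.54% of all genes called).

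These calls rested on few mice and pools, although no direction turned. In monocytes and macrophages, cDC1-like cells, mature dendritic cell-like cells and all haematopoietic cells they ended in 2, 10, 3 and 9 of 24 left-out fits and in 1, 7, 3 and 3 of 15 other settings. Single mice ended the last 3 of these calls as well, but not the one in monocytes and macrophages. The call in cDC1-like cells ended without any 1 of the 3 mice of the first control isotype pool, of the 3 of the first B2m-null isotype pool or mouse 2 of the second control isotype pool (adjusted p of 0.0592 to 0.113). In mature dendritic cell-like cells it ended without mouse 3 of the first control isotype pool (0.0517). The call over all haematopoietic cells ended without mouse 1 or 3 of the first or mouse 2 of the second B2m-null isotype pool (0.0537 to 0.0849). It also ended without mouse 1 or 2 of the first or mouse 2 of the second control isotype pool (0.0558 to 0.0884), and without the second B2m-null anti-CD40 pool (0.0525). Without the first control isotype pool the changes were -0.44 in monocytes and macrophages (edgeR adjusted p of 0.154), -0.36 in cDC1-like cells (0.708), -0.56 in mature dendritic cell-like cells (0.952) and -0.40 over all haematopoietic cells (0.472). Without the first B2m-null isotype pool, the one with few assigned cells, they were -0.63 (0.08), -0.21 (0.498), -0.62 (0.0896) and -0.55 (0.27) in the same order. With pools in place of mice as the unit they were -0.64 (0.0492), -0.42 (0.546), -0.70 (0.772) and -0.57 (0.101). Without the second control isotype pool the change in cDC1-like cells was -0.48 (0.0719). With the cells of a group pooled, Irf8 was lower in B2m-null isotype tumours in 8 of the 8 monocyte-like and macrophage-like clusters.

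Under anti-CD40, among mice with at least 20 cells, Irf8 was called lower in 3 sets of control tumours and higher in 2 sets of B2m-null tumours. In mature dendritic cell-like cells of control tumours, 1 anti-CD40 mouse held 1018 CPM and the isotype mice 699 to 983. That set could not be tested there for Irf8. Over all haematopoietic cells of control tumours it fell 1.76-fold, from the isotype values above to 228 and 242 CPM (log2 -0.82 ± 0.187, edgeR quasi-likelihood Benjamini-Hochberg adjusted p of 0.00517), without overlap, and it was -0.72 with an adjusted p of 0.0765 without mouse 1 of the anti-CD40 pool. In B2m-null tumours under anti-CD40 it was at 199, 216, 221 and 262 CPM and was not called. The shares of pDC-like and cDC1-like cells, the classes highest in Irf8, were lower under anti-CD40 in both genotypes. Their part in these values of Irf8 was not tested. In CD8 T-like cells of control tumours it fell from the isotype values above to 109 and 134 CPM (2.16-fold lower, log2 -1.11 ± 0.309, edgeR adjusted p of 0.0135). The call ended without the first isotype pool (-1.17, edgeR adjusted p of 0.0699). It ended too without mouse 2 of the anti-CD40 pool (-0.95), which left 1 mouse there, and with pools as the unit (-1.18), which left 1 control anti-CD40 pool. The clusters making up CD8 T-like cells differed between these groups, as given for Flt3l, and their part was not tested. The third fall was in NK-like cells, given below. In monocytes and macrophages of B2m-null tumours it rose, from the isotype values above to 206, 211, 212 and 213 CPM, all 4 above the highest isotype mouse (1.42-fold, log2 0.50 ± 0.108, edgeR adjusted p of 0.00184). The groups drew this set from different clusters: under isotype and anti-CD40, 1 macrophage-like cluster held 1456 and 537 cells, another 110 and 768, and 1 monocyte-like cluster 971 and 1698. With the cells of a group pooled, Irf8 was higher under anti-CD40 in 7 of the 8 clusters, with no test, and lower in 1, at 144 and 142 CPM. In mature dendritic cell-like cells of B2m-null tumours it rose to 840 and 1526 CPM in the 2 mice with at least 20 cells (2.37-fold, log2 1.25 ± 0.184, edgeR adjusted p of 0.00016, 1.72% of all genes called). Without mouse 2 of the first anti-CD40 pool, the mouse at 1526 CPM, that change was 0.81 with an adjusted p of 0.151. Both mice came from the first anti-CD40 pool, so that in this set pool and treatment cannot be told apart with a minimum of 20 cells. With the minimum lowered to 10 cells, which adds the 2 mice of the second pool with 13 and 14 cells, the change was 1.08 ± 0.175 (edgeR adjusted p of 0.000666), while 3 of 12 other settings ended the call: pools as the unit (1.03, 0.0512), pools with all non-doublet cells (0.96, 0.0526) and marker gates (0.90, 0.115). In cDC1-like cells, with the minimum lowered to 10 cells so that 3 B2m-null anti-CD40 mice could be fitted, Irf8 rose by 0.50 ± 0.123 (edgeR adjusted p of 0.0122, 6.93% of all genes called) and the difference of the CD40 effects between genotypes was 0.86 ± 0.191 (edgeR adjusted p of 0.00952, 2.77% called).

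In NK-like cells the CD40 effect on Irf8 also differed between the tumour genotypes, the 1 such call for the 6 genes with a minimum of 20 cells. Control isotype mice held 845, 913, 922, 923 and 1020 CPM and anti-CD40 mice 553 and 557 CPM, a fall of 1.58-fold (log2 -0.66 ± 0.17, edgeR quasi-likelihood Benjamini-Hochberg adjusted p of 0.0114). B2m-null isotype mice held 574, 593, 868 and 995 CPM and anti-CD40 mice 826, 855, 880 and 948 CPM, a change of 0.42 that was not called (adjusted p of 0.0616). The anti-CD40 mice of the 2 genotypes did not overlap, with B2m-null mice higher by 0.72 ± 0.176 (adjusted p of 0.0127, 4.04% of all genes called). The difference of the 2 CD40 effects was 1.08 ± 0.227, with an adjusted p of 0.00463 by edgeR's quasi-likelihood test and Benjamini-Hochberg adjustment, where 2.07% of all genes were called. The fall, the genotype difference and the difference of effects ended in 4, 4 and 3 of 24 left-out fits and in 5, 4 and 4 of 14 other settings. All 3 calls ended with pools as the unit, also with all non-doublet cells, but these fits leave 1 control anti-CD40 pool and are not read. They ended too without mouse 1 or mouse 2 of the control anti-CD40 pool, which left 1 mouse there. With marker gates the edgeR adjusted p values of the 3, in the same order, were 0.521, 0.381 and 0.175. Thinned to 2000 UMIs they were 0.1, 0.124 and 0.152, and the fall was at 0.062 with no filter on low counts. Without the first control isotype pool the fall and the difference of effects had adjusted p values of 0.124 and 0.0551, without the second lane of the control anti-CD40 pool the fall and the genotype difference had 0.114 and 0.0888, and without the second B2m-null anti-CD40 pool the genotype difference had 0.074. In pDC-like cells Irf8 was at 2075 to 2525 CPM in control isotype mice and at 1445, 1458, 2337 and 2510 CPM in B2m-null isotype mice, with no call.

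Batf3 RNA was equally high in cDC1-like cells, at 213 ± 35.01 CPM (SD, n = 13 mice), and mature dendritic cell-like cells, at 210 ± 40.02 (n = 13), with cDC1-like cells the higher in 6 of the 11 mice that had both. cDC2-like cells at 57.5 ± 11.8 CPM, monocyte-like cells at 53.3 ± 19.0 and macrophage-like cells at 41.6 ± 12.5 followed, overlapping in spread, and pDC-like cells stood at 17.9 CPM and NK-like cells at 8.95. Over all haematopoietic cells Batf3 was at 55.7, 57.9, 69.5, 69.8 and 76.7 CPM in control isotype mice and at 29.8 and 41.3 CPM under anti-CD40, a separation just short of a call (log2 -0.80, edgeR adjusted p of 0.0623). It was called in 4 of 24 left-out fits (adjusted p down to 0.0133) and in 4 of 14 other settings. These were DESeq2 (0.0284), limma-voom (0.0382), thinning to 2000 UMIs (0.0191) and pools as the unit, which leave 1 control anti-CD40 pool and are not read. In B2m-null tumours it was at 27.2, 51.3, 59.2, 65.5 and 82.7 CPM under isotype and at 20.6, 26.5, 28.6 and 38.5 CPM under anti-CD40, a change of -0.81 ± 0.244 (edgeR quasi-likelihood, Benjamini-Hochberg adjusted p of 0.0178). These groups overlapped, and the call ended in 3 of 24 left-out fits, without the first B2m-null isotype pool (-0.55, adjusted p of 0.2), the second anti-CD40 pool (-0.79, 0.119) or mouse 2 of the first anti-CD40 pool (-0.67, 0.0573). Within single cell classes edgeR's test called 0 of 19 Batf3 contrasts, and 2 had an unadjusted p under 0.05. The cDC1-like cells held 170 to 262 CPM in control isotype mice, 247 and 264 under anti-CD40, 165 to 222 in B2m-null isotype mice and 238 in the 1 B2m-null anti-CD40 mouse. Mature dendritic cell-like cells held 175 to 223, 241, 162 to 251, and 188 and 310 CPM in the same order of groups. Monocytes and macrophages held 48.3 to 68.4 CPM in control isotype mice, 42.8 and 54.5 under anti-CD40, 19.0 to 52.2 in B2m-null isotype mice and 21.5 to 39.3 under anti-CD40.

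**Figure D5:**
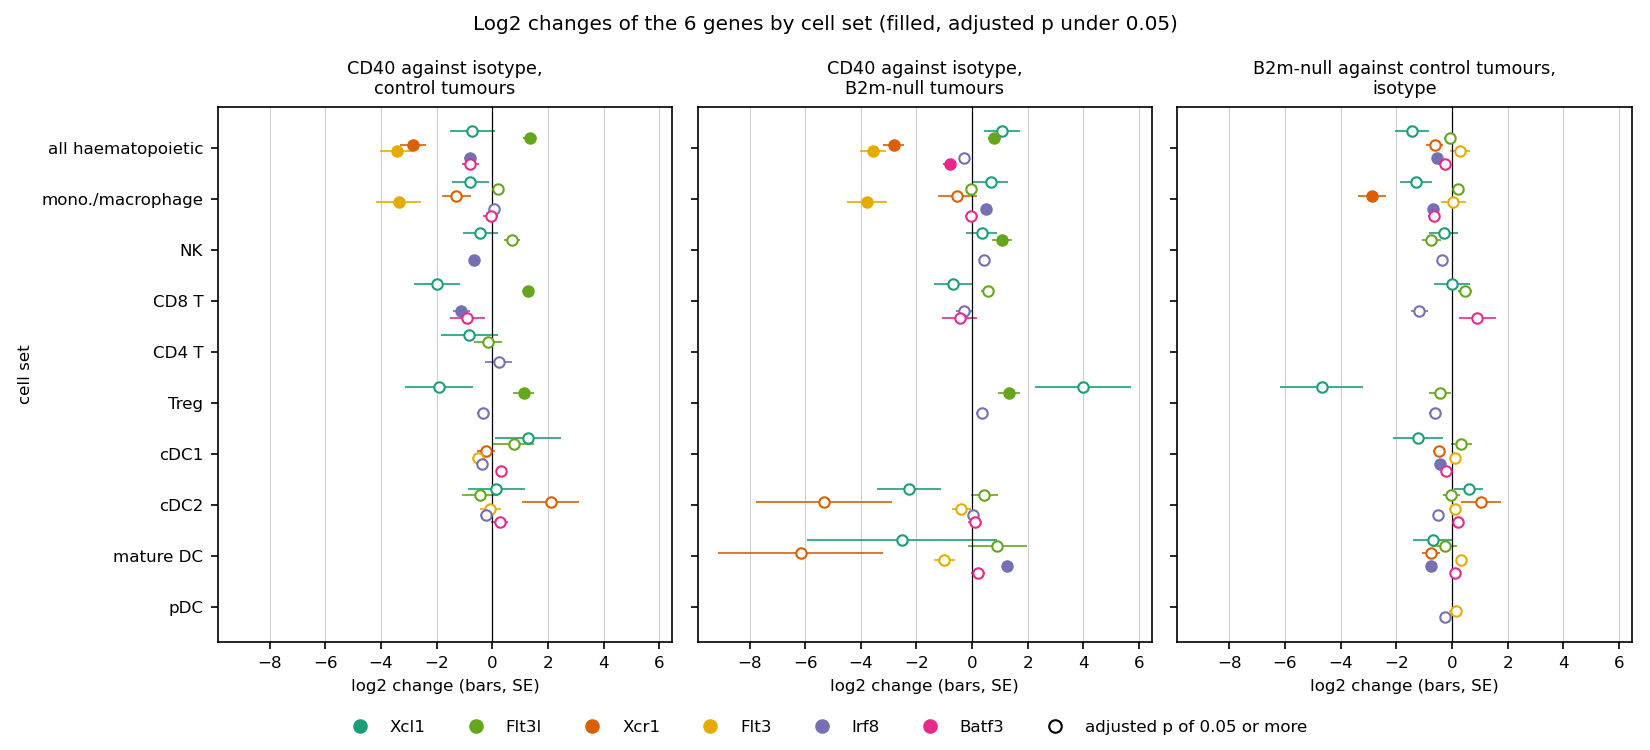
Log2 fold change of the 6 genes in each tested cell set for anti-CD40 against isotype in control tumours, anti-CD40 against isotype in B2m-null tumours, and B2m-null against control tumours under isotype; bars are standard errors from edgeR's quasi-likelihood fit and filled points have an adjusted p under 0.05. Filled points under anti-CD40 lie to the left for Xcr1 and Flt3 over all haematopoietic cells and to the right for Flt3l, and Irf8 has filled points to the left in the comparison of tumour genotypes.

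The 4 receptor and lineage genes were found together in single cDC1-like cells in every group. All 4 of Xcr1, Flt3, Irf8 and Batf3 had at least 1 UMI in 35.6% of cDC1-like cells in control isotype tumours, 29.6% under anti-CD40, 37.2% in B2m-null isotype tumours and 20.3% under anti-CD40. The cells of an anti-CD40 group numbered 71 or 69 and came from few mice, and these shares were not tested.

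In the wider pathway, 0 to 3 genes of a list were called in a comparison within dendritic cells, where 0.174% to 7.69% of all genes were. Of 17 factors of dendritic cell development, 15 passed the filter in cDC1-like cells. Klf4, a factor of cDC2 development, rose under anti-CD40 in control tumours (log2 1.11 ± 0.228, 82.2 to 168 CPM, edgeR adjusted p of 0.00517, 1.79% of all genes called). Tcf4, the factor that specifies pDC, was higher in B2m-null than in control isotype tumours (log2 0.89 ± 0.188, 34.99 to 71.8 CPM, edgeR adjusted p of 0.0108, 1.17% of all genes called), beside the lower Irf8 of the same cells. The list's median change was -0.12 against -0.02 for all genes in the first comparison and 0.02 against 0.00 in the second. In B2m-null tumours under anti-CD40, 1 of 16 fell in cDC2-like cells (Zeb2, log2 -0.69 ± 0.161, edgeR adjusted p of 0.00527, 7.69% of all genes called) and 1 of 16 in mature dendritic cell-like cells (Cbfa2t3, log2 -1.0025 ± 0.261, 360 to 173 CPM, edgeR adjusted p of 0.0401, 1.72% of all genes called).

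Among 17 genes of FLT3 signalling and dendritic cell growth factor receptors, 0 of 16 were called in cDC1-like cells by edgeR's test, where 1.79% and 1.17% of all genes were. That count does not set the list apart, with 0 at an unadjusted p under 0.05 for the CD40 contrast of control tumours and 2 for the genotype contrast under isotype. In cDC2-like cells 1 of 17 was called in each CD40 contrast: Socs2, a feedback inhibitor of cytokine signalling, at log2 -3.46 ± 1.00 in control tumours (edgeR adjusted p of 0.036, 4.46% of all genes called), and Kit, the stem cell factor receptor, at 1.18 ± 0.287 in B2m-null tumours (38.4 to 80.7 CPM, edgeR adjusted p of 0.0095). Of 9 chemokine receptors of dendritic cells, 7 passed the filter in cDC2-like cells. Cxcr3 (log2 1.72) and Cxcr4 (1.52) rose under anti-CD40 in control tumours, where the summed level of 5 T cell markers in these cells went from 297 to 792 CPM, its part not being tested. Ccr2 fell by 0.57 in B2m-null tumours, and Cxcr4 was lower in B2m-null than in control tumours under anti-CD40 by -1.63, where 1.26% of all genes were called. The CD40 effects on Cxcr4 differed between the genotypes by -1.75 (edgeR adjusted p of 0.0163). In pDC-like cells no gene of these lists was called under isotype, where 0.174% of all genes were, and 1 of 9 development factors and 0 of 9 FLT3 signalling genes had an unadjusted p under 0.05.

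Among 15 genes of cDC1 function, 14 passed the filter in cDC1-like cells. Under anti-CD40 in control tumours Itgae, the integrin CD103, fell by 1.32 (log2 scale; SE 0.245, 279 to 111 CPM, edgeR adjusted p of 0.00197) and Cadm1, an adhesion molecule, rose by 0.89 (SE 0.212, 150 to 258 CPM, adjusted p of 0.021); both are also among the 9 markers that named the class. In cDC2-like cells 3 of 13 were lower in B2m-null than in control isotype tumours, where 2.81% of all genes were called: Cxcl9, a chemokine that attracts CXCR3-bearing T cells, at 499 and 182 CPM (log2 -1.44, edgeR adjusted p of 0.00761), the lectin Clec9a (-1.12) and the peptide transporter Tap1 (-0.57). Under anti-CD40 in B2m-null tumours Cxcl9 rose by 1.89 and Tap1 by 0.93 in these cells, with Cd8a at 1.49. The CD40 effects differed between the genotypes for Cxcl9 by 1.84 (edgeR adjusted p of 0.047) and for Tap1 by 0.82 (0.0242), where 4.01% of all genes were called. Cd8a also rose in control tumours (2.35) and was lower in B2m-null than in control tumours under anti-CD40 (-1.55, edgeR adjusted p of 0.0262). The 5 T cell markers in cDC2-like cells summed to 297, 792, 214 and 352 CPM in control isotype, control anti-CD40, B2m-null isotype and B2m-null anti-CD40 tumours, their part in the Cd8a values not being tested.

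Of 10 cytokines and chemokines that NK and T cells release with Xcl1, 7 passed the filter in NK-like cells. In B2m-null tumours under anti-CD40, Ifng rose from 136 to 339 CPM (log2 1.46 ± 0.272, edgeR adjusted p of 0.00144) and Ccl5 by 1.94 (adjusted p of 0.0473), while Csf2, the growth factor GM-CSF, fell by 3.72 (adjusted p of 0.0121), where 9.87% of all genes were called. The 5 T cell markers in these NK-like cells summed to 159 CPM under isotype and 719 CPM under anti-CD40, their part in these values not being tested. The list's median change was 1.11 against 0.01 for all genes. In CD8 T-like cells Ccl5 rose in control tumours, from 2068 to 11345 CPM (log2 2.48 ± 0.617, edgeR adjusted p of 0.0108), with Csf2 lower by -2.43, and in B2m-null tumours by 2.14 (adjusted p of 0.0365), with Ccl3 at -1.50, where 11.7% of all genes were called. The make-up of CD8 T-like cells differed between isotype and anti-CD40, as given for Flt3l, its part not being tested. In CD4 T-like cells 1 of 8 rose under anti-CD40 in control tumours (Ifng, 2.66; 3.8% of all genes called), and Ccl3 (-3.37) and Tnf (-1.65) were lower in B2m-null than in control tumours under anti-CD40 (8.14% called). Xcl1 itself was thus not among the called genes in these sets, as given above.

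Over 47 means of a class in a group (15 classes, 14760 genes), the genes whose log2 level was most like that of each member were found by Pearson correlation, as a description in which the points share mice and lanes. Most like Xcl1 were the NK receptor genes Klra7 (0.90) and Klre1 (0.90), the pore-forming protein gene Prf1 (0.88), Cd160 (0.87) and Samd3 (0.86). Most like Flt3l were Rab19 (0.90), the phosphatase gene Ptpn22 (0.89), Gimap3 (0.89), Rinl (0.89) and Gm15472 (0.89). For Xcr1 they were Gramd2 (0.88), Gpr141b (0.87), Gcsam (0.87), Gpr33 (0.86) and Gm38410 (0.84), and for Flt3 Kmo (0.89), Cbfa2t3 (0.89), Uvrag (0.88), Gm43914 (0.88) and Sept3 (0.86). For Batf3 they were Cst3 (0.92), Tbc1d9 (0.90), Naaa (0.90), Hfe (0.89) and Shtn1 (0.88). Irf8, expressed in both lymphoid and myeloid classes, had the lowest values, with Nrg2 (0.77), P2ry14 (0.76), Hhex (0.74), Arhgap17 (0.70) and BC035044 (0.69). Among the members the highest were Xcr1 with Flt3 (0.74), Flt3 with Batf3 (0.72), Xcr1 with Batf3 (0.70) and Xcl1 with Flt3l (0.64).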

How the data were processed

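Single-cell 3′ RNA and hashtag libraries of 8 lanes were used. The deposited matrices hold whole-number UMI counts per gene and barcode, not normalized by the authors per the file headers. The submitters' processing notes name Cell Ranger 3.0.0, bcl2fastq 2.20.0.422 and mm10; their settings are not stated in the labels or headers. Each lane held 45985739 to 99264875 UMIs. Precision for rare classes is limited by few cells per mouse, and intervals from counting alone are not given.

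Barcodes were assigned to mice from hashtag counts (at least 20 counts, 2.5 SD, posterior of 0.9), which removed 10146 hashtag doublets of 116552 barcodes; Scrublet's automatic threshold marked 0% to 0.019% of cells and was not used. The 91051 cells that had 200 genes or more and no more than 10% mitochondrial UMIs were clustered with scanpy 1.11.5 (2000 variable genes without the 6 genes, 40 principal components, 20 neighbours, Leiden resolution 1) into 25 clusters. Names were rebuilt from marker genes, with naming thresholds set after seeing the data, so that classes may differ from the authors' own.

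Counts were summed per mouse and cell set for mice with at least 20 cells and tested in all groups together with edgeR 4.0.16 (TMM, filterByExpr, robust quasi-likelihood fit, R 4.3.3), Benjamini-Hochberg adjusted over all genes of the set. CPM is a gene's UMIs per 1000000 UMIs of the mouse's cells in the set. Ligand source shares used mice with at least 30 UMIs and two-sided exact permutation tests. The script was tested on simulated data. Alternatives included DESeq2 1.42.0, limma-voom 3.58.1, other filters, clusterings and units, and leaving out each mouse, pool or lane. The labels say that pools hold individual mice, and mice of a pool share processing, so p-values measure the spread between mice and partly between pools.

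The text names the 6 genes in every set, up to 3 called genes with the largest change per pathway list, set and contrast, and the 5 genes most like each member. The members and lists were chosen with earlier results of these data known. Protein sequences were not used here. Another motif searched in the same promoter windows is not reported here.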

Additional observations from a re-analysis of the deposited data

Results flagged for a closer look

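In 81 groups of mice checked, 5 held a mouse far from the rest of its group, where chance gives about 1 in 20. Flt3l in CD4 T-like cells of control isotype tumours was at 0 CPM in 1 of 4 mice, from 26 cells, the nearest mouse being at 66.1. Flt3 over all haematopoietic cells of B2m-null anti-CD40 tumours reached 3.87 CPM in 1 of 4 mice, the next being at 1.75. Xcl1 over all haematopoietic cells of B2m-null isotype tumours reached 70.6 CPM in 1 of 5 mice, the next being at 18.6. The share of Flt3l UMIs in T-like cells reached 36.6% in 1 of 4 B2m-null isotype mice, the next being at 9.66%, and 41.5% in 1 of 5 control isotype mice, the next being at 28%.

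The anti-CD40 effect on Irf8 in NK-like cells differed between the tumour genotypes by 1.08 on the log2 scale in the interaction test, with levels falling in control tumours and not called in B2m-null tumours. The control anti-CD40 mice came from a single pool, and the summed T cell markers of their NK-like cells were at 624 CPM, against 719 CPM in B2m-null anti-CD40 mice.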

How the results depend on the processing

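Of the 26 called results, recomputed under 39 settings in 990 values, 838 kept their call, 152 lost it and 0 turned direction. Part of these values could not change. A minimum of 10 or 50 cells left all haematopoietic cells and monocytes with macrophages as they were. Some mice left out had too few cells of a set to be in its fit. Flt3 and Xcr1 over all haematopoietic cells in both genotypes, Flt3l over all haematopoietic cells and in CD8 T-like cells of control tumours, and in B2m-null tumours under anti-CD40 Flt3 and Irf8 in monocytes and macrophages kept their calls under every setting run; marker gates left all haematopoietic cells, monocytes with macrophages and regulatory T-like cells as they were. The counts of called member tests ranged over 5 to 10 when 1 mouse, pool or lane was left out for anti-CD40 in control and also 5 to 10 in B2m-null tumours, 0 to 8 for genotype under isotype, 0 to 3 for genotype under anti-CD40 and 0 to 3 for the difference. Marker gates gave 14, 17, 3, 1 and 0 calls for these 5 comparisons. For the last 3, no filter on low counts gave 8, 4 and 4. For genotype under isotype, pools as the unit gave 2 and pools with all non-doublet cells 1. Pools leave 1 control anti-CD40 pool, so that genotype under anti-CD40 and the difference are not read with them. At most 5% mitochondrial counts gave 3 for genotype under isotype. For genotype under anti-CD40 and the difference, Leiden resolution 2 gave 1 and 2, the members kept among the variable genes 1 and 2, and thinning to 2000 UMIs 0 and 0. For genotype under anti-CD40, limma-voom gave 1 and leaving out the top 5% of Scrublet scores 1, and for the difference a minimum of 10 cells gave 2. The cause was not tested.

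None of the 12 source-share tests passed under any setting, and 6 differences, of -14.8 to 6.64 points, turned sign. Tests with the 2 control anti-CD40 mice could not pass, the smallest p of the exact permutation test being 0.0952 or 0.133. As reported, the T share of Flt3l under anti-CD40 in B2m-null tumours could not pass after adjustment either, at a smallest p of 0.0286 by that test. Leaving out mice or taking pools as the unit raises the smallest p, so these outcomes do not show stability. The NK share of Xcl1 changed by -2.30 points under anti-CD40 in control tumours (-10.4 to 2.11 with 1 mouse, pool or lane left out, turning to 0.38, 2.04 and 2.11; 1.51 at Leiden resolution 2). In B2m-null tumours it changed by 6.64 (-8.43 to 16.7; -2.30 with all non-doublet cells, -0.29 with marker gates, -7.14 thinned). Between genotypes it changed by -7.04 under isotype (-17.1 to 8.03; 0.97 with all non-doublet cells, 8.70 at 5% mitochondrial counts, 10.4 thinned) and by 1.89 under anti-CD40 (-2.44 to 10.0, turning to -1.28, -0.37 and -2.44). The CD8 T share of Xcl1 changed by -2.57 between genotypes under anti-CD40 (-9.98 to 3.10, turning to 0.28, 1.16 and 3.10). The T share of Flt3l changed by -14.8 between genotypes under isotype (-23.7 to -5.96; 2.67 thinned). The cause was not tested.

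Pool numbers did not pair the groups: deviations of same-numbered pools correlated at -0.054, 0.0106 and 0.238 over 11363 genes. The fit with the replicate block also left out the control anti-CD40 mice, so it differs from the reported fit in its mice as well. With it, Flt3 over all haematopoietic cells of B2m-null tumours changed by -3.53, and Irf8 in NK-like cells of B2m-null tumours by 0.41. The edgeR adjusted p of the latter was 0.0351, a call that the fit as reported did not make (0.0616).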
